A study of Homo sapiens with 10 samples.

Results

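The ZNF genes of chromosome 19 are the protein-coding genes of that chromosome whose GENCODE symbol is ZNF followed by a number and at most 1 letter. They numbered 246 of the 1480 protein-coding genes of chromosome 19, and of the 20098 on chromosomes 1 to 22 and X. They were described in MDAMB231, a human triple-negative breast cancer cell line grown in DMEM with serum. Antibodies recovered the DNA of modified nucleosomes in ChIP-seq for H3K4me3, H3K27Ac and H3K4me1, and FAIRE-seq recovered DNA poor in nucleosomes as a measure of open chromatin. Each assay had 2 samples, with 1 input sample for ChIP and 1 for FAIRE, and the study used such maps to find the regulatory elements of breast epithelial cells.

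Most ZNF proteins of this chromosome hold a KRAB domain followed by a row of C2H2 zinc fingers, each of which reads a few bases of DNA. The KRAB domain recruits TRIM28, which brings the histone methyltransferase SETDB1 and HP1 proteins, and the complex is known for silencing retrotransposons. The genes arose by repeated duplication and stand in clusters. H3K4me3 and H3K27Ac mark active promoters, while H3K4me1 without H3K4me3 marks enhancers.

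Each assay was analysed as 1 list of peaks that the authors called on combined replicates. There is therefore no replicate error and no test, and every difference between groups of genes below is a description. Intervals are 95% Wilson intervals and cover counting over genes only. The lists held 18019 H3K4me3, 37495 H3K27Ac, 26771 H3K4me1 and 46552 FAIRE peaks, and the files hold no read numbers, so the depth behind a missing peak is unknown. Of the cell line's markers, VIM, CD44, AXL and CAV1 had H3K4me3 and H3K27Ac at the promoter. ESR1 and PGR had H3K4me3 without H3K27Ac. The epithelial genes GATA3, CDH1 and EPCAM were set down as lacking H3K27Ac in this line, and each had an H3K27Ac peak, which goes against that list. GATA3 and EPCAM also had H3K4me3 at the promoter, and CDH1 did not.

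The promoters of 4 genes of the same cluster (cluster 4, described further on) are shown because they are close relatives with different marks. Each runs from 250 bases before to 50 bases after the canonical GENCODE start, 5′ to 3′ in the direction of the gene, on GRCh37. Capitals mark CCGGAA or its reverse complement TTCCGG, the core letters of an ETS factor motif. ZNF93 (plus strand, chr19:20011505-20011804) and ZNF91 (minus strand, chr19:23578224-23578523) encode repressors of retrotransposons and had H3K4me3, H3K27Ac and FAIRE peaks. ZNF208 (minus strand, chr19:22193696-22193995) and ZNF730 (plus strand, chr19:23299577-23299876) had no peak of any list.
ZNF93: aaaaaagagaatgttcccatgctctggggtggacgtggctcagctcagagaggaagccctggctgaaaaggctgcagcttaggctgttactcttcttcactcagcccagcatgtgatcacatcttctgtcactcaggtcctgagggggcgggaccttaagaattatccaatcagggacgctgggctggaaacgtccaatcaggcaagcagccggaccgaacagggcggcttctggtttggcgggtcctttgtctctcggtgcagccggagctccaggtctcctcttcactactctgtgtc
ZNF91: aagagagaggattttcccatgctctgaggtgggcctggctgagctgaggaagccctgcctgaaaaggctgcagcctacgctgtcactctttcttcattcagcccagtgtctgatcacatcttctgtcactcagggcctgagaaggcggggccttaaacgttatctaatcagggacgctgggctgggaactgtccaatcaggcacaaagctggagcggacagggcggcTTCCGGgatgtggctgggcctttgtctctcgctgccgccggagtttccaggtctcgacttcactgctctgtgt
ZNF208: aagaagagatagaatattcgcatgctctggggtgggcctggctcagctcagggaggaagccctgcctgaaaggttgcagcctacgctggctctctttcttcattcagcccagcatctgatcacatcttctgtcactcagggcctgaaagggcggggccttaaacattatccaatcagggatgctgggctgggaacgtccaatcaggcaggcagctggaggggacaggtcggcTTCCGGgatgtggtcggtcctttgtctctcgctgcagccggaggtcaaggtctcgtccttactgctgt
ZNF730: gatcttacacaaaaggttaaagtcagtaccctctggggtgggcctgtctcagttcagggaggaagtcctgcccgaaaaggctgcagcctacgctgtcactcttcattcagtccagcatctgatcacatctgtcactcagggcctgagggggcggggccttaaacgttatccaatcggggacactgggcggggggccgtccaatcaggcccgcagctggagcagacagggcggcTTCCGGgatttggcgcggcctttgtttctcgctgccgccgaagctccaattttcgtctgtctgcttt
In a global alignment the windows of ZNF91 and ZNF208 were identical in 263 of 307 aligned columns, or 85.7%. ZNF91 and ZNF730 were identical in 240 of 313 columns, or 76.7%. The pair that both carried peaks, ZNF93 and ZNF91, were identical in 254 of 305 columns, or 83.3%, and the pair without peaks, ZNF208 and ZNF730, in 78.2%. ZNF93 was identical to ZNF208 in 82.7% and to ZNF730 in 74% of columns. The TTCCGG match stood in ZNF91, ZNF208 and ZNF730 and not in ZNF93, so within these 4 windows it did not separate the genes with peaks from those without.

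At least 1 H3K4me3 peak met the promoter, any annotated start site widened by 1 kb on each side, of 217 of the 246 ZNF genes. This share of 88.2% (83.6 to 91.7) stood beside 68.8% of all coding genes of chromosome 19 and 64.9% (62.2 to 67.5, n = 1234) of those that are not ZNF genes. H3K27Ac was found at 211 ZNF promoters, 85.8% (80.9 to 89.6), beside 65.2% of the chromosome's coding genes. FAIRE peaks were found at 133, 54.1% (47.8 to 60.2), beside 41.4%. The FAIRE gap varied with the rule, from 39% against 32.1% of the other coding genes with peaks at or above the median height to 59.8% against 22% where windows shared no base with another gene. H3K4me1 stood in the opposite order, with 10 ZNF promoters or 4.07% (2.22 to 7.32), beside 8.24%. The size of this gap depended on the rule. With any shared base, H3K4me1 was at 4.07% of ZNF promoters and 9.08% of the other coding genes of the chromosome. With the centre of the peak inside the window the shares were 2.44% and 3.24%, and with peaks of a score of at least 100 they were 1.63% and 3.97%. The 262 genes of the same naming pattern on other chromosomes had H3K4me3 at 88.2%, H3K27Ac at 82.4% and FAIRE at 49.6%, but H3K4me1 at 14.5%. The 18 chromosome 19 genes named ZFP, ZSCAN, ZIM, ZIK or ZBTB, whose products are zinc finger proteins too, had H3K4me3 at 66.7% (43.7 to 83.7).

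The marks came in few combinations. H3K4me3, H3K27Ac and FAIRE without H3K4me1 met at 125 ZNF promoters, 50.8% beside 35.5% of all coding genes of chromosome 19. H3K4me3 with H3K27Ac alone met at 76, 30.9% beside 21.5%. All 4 kinds were present at 7, 2.85% beside 4.8%, and the 3 histone marks without FAIRE at 3, 1.22% beside 2.09%. All 217 ZNF promoters with any peak had H3K4me3, close to the 97% (1018 of 1049) of the chromosome's coding genes with any peak. H3K4me3 stood alone at 5 genes, 2.03% beside 4.32%, which were ZNF257, ZNF404, ZNF577, ZNF582 and ZNF132. With FAIRE but without H3K27Ac it stood at 1 gene, ZNF283, 0.407% beside 0.405%. The 10 with H3K4me1 were ZNF699, ZNF441, ZNF491, ZNF792, ZNF790, ZNF226, ZNF235, ZNF83, ZNF888 and ZNF460. Their H3K4me1 scores ran from 59.54 at ZNF790 to 238.04 at ZNF792.

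No peak of any list met 29 ZNF promoters, 11.8% (8.33 to 16.4), beside 29.1% of all coding genes of chromosome 19. The share depended on the start sites used. With the 5′ end of the gene as the single start site it was 19.1%, against 37.8% of the chromosome's other coding genes. Windows that hold repeated sequence can lose reads, so the share of 50-base words in each promoter that occur once in GRCh37 was counted. Its median was 94.8% at the 29 promoters without a peak and 95.6% at the 217 with one, and its part in single missing peaks was not tested. The windows of ZNF208 and ZNF773 were the least unique of those without a peak that are named here, at 78.9% and 74.9%.

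**Figure D1:**
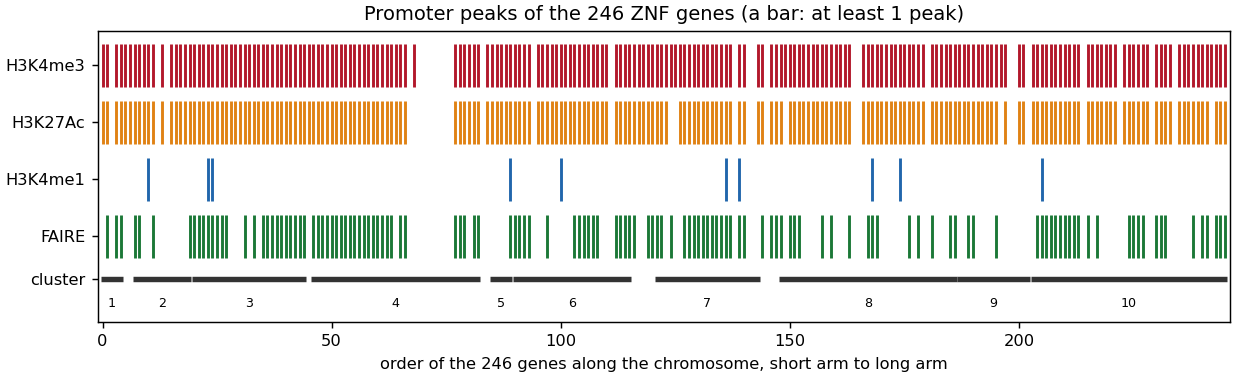
Each column is 1 of the 246 ZNF genes in chromosomal order, and a bar in a row shows at least 1 peak of that list at its promoter; the line below gives the 10 clusters. H3K4me3 and H3K27Ac run almost unbroken, with the widest gap in cluster 4.

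The widest H3K4me3 peak at a ZNF promoter had a median width of 2610 bp over 217 genes (quartiles 2299 and 2859), against 3018 bp over 801 other coding genes of the chromosome (quartiles 2528 and 3829). H3K27Ac showed the same order, with medians of 2459 bp (quartiles 2132.5 and 2802, n = 211) and 3238 bp (quartiles 2548.8 and 4515.5, n = 754). The ZNF genes of other chromosomes had medians of 2788 bp for H3K4me3 and 2791.5 bp for H3K27Ac, which also lay under those of all coding genes, 2973 and 3251 bp. The 217 genes shared 207 distinct H3K4me3 peaks, since neighbours can meet in 1 peak. H3K4me3 peaks of 5000 bp or more were present at 2 ZNF genes, 0.922% of those with the mark, and at 61 other genes, 7.62%. The H3K4me3 score, minus 10 times the log10 of the peak's p-value, was 3100 or more, where values pile up at 3100, at 190 of the 217 and therefore could not rank them. The H3K27Ac score had a median of 895.4 at ZNF promoters and 1307.6 at the others.

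**Figure D2:**
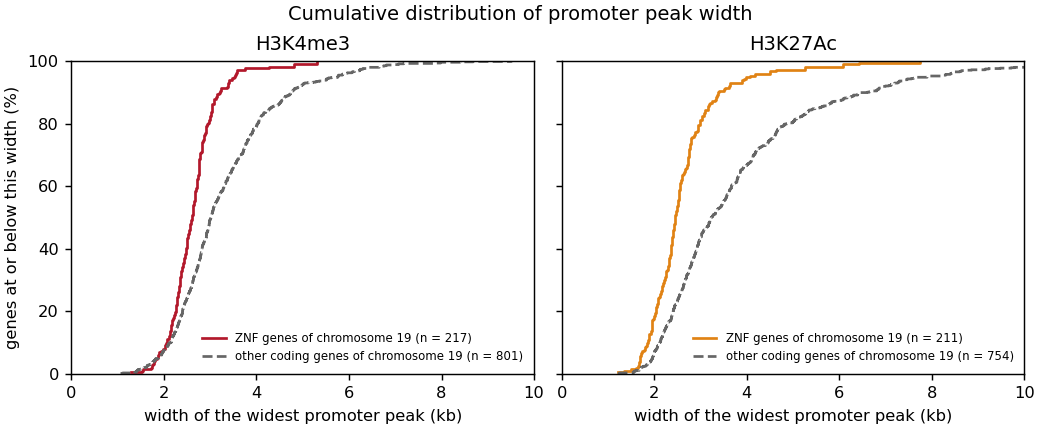
Cumulative share of genes (y axis, %) by the width of the widest promoter peak (x axis, kb, shown to 10 kb) for H3K4me3 and H3K27Ac. The curve of the ZNF genes, coloured, rises earlier and ends sooner, with medians of 2610 and 2459 bp against 3018 and 3238 bp.

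H3K4me3 peaks covered the canonical start itself in 86.6% of ZNF genes and the position 1000 bp into the gene in 85%. At 2000 bp into the gene the share was 4.47%, where 18.3% of the other genes were covered. On the upstream side H3K4me3 covered 45.5% of ZNF genes at 1000 bp and 4.47% at 2000 bp, against 43% and 15.7% of the others. FAIRE peaks covered the start in 49.2% of ZNF genes and lay more on its upstream side, with 30.5% covered at 500 bp upstream and 5.28% at 500 bp downstream. The other genes showed the same order, with 21.8% and 4.13%. At the other end of the gene, 8 ZNF genes had H3K4me3 over the 3′ end, 3.25% against 10.6% of the other genes. Peaks away from any promoter lay in the gene body of 2.03% of ZNF genes for H3K4me3 and 6.5% for FAIRE, against 5.75% and 13.8% of the others. For H3K27Ac the shares were 8.54% and 9.56%, and for H3K4me1 3.25% and 3.89%. The ZNF genes were longer, with a median of 25819 bp against 13908.5 bp.

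**Figure D3:**
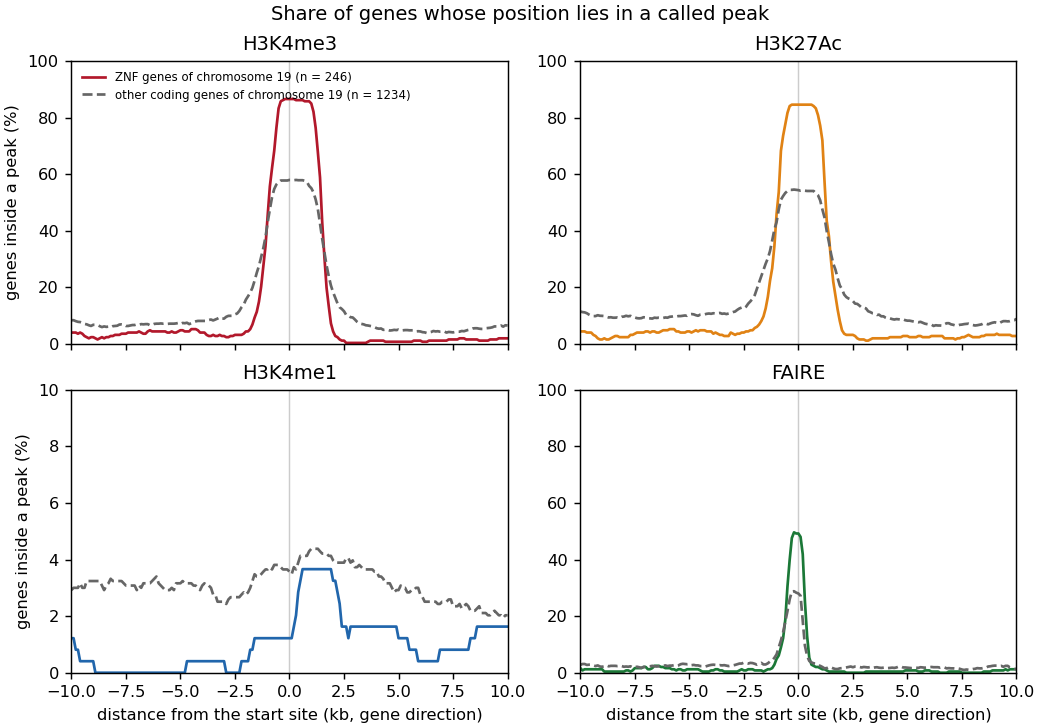
Share of genes (y axis, %, with a smaller scale for H3K4me1) whose position at each distance from the canonical start (x axis, kb, gene direction) lies inside a called peak, for 246 ZNF genes (coloured) and 1234 other coding genes of chromosome 19 (grey, dashed). The ZNF curves for H3K4me3 reach 86.6% at the start and fall to 4.47% at 2 kb on either side.

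The widest and narrowest H3K4me3 peaks show the range. ZNF580 and its neighbour ZNF581, short zinc finger proteins of 3 and 4 fingers, shared the widest at 5303 bp (chr19:56151445-56156747). ZNF569 and ZNF570, which are transcribed in opposite directions, shared a peak of 4818 bp (chr19:37956751-37961568), whose H3K27Ac partner was 2076 bp wide. ZNF576 had 4274 bp. All 5 of these promoters share bases with the window of another coding gene. The narrowest belonged to ZNF582 (1299 bp, score 104.93), ZNF257 (1535 bp, score 188.46), ZNF283 (1550 bp), ZNF404 (1727 bp) and ZNF610 (1751 bp). Of these 5, ZNF610 alone had H3K27Ac, with a score of 221.13.

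CpG content separated the other genes of the chromosome more than it did the ZNF genes. The 300 bases around the canonical start held a median of 20 CpG in ZNF genes and 21.5 in the others, with a GC content of 59.2% and 64%. With 0 to 9 CpG, H3K4me3 was present at 17 of 20 ZNF promoters, 85% (64 to 94.8), and at 65 of 323 others, 20.1% (16.1 to 24.8). With 10 to 19 CpG it was present at 83 of 97, 85.6%, and at 132 of 242, 54.5%. At 20 to 29 CpG the shares were 92.7% and 88.2%, and at 30 or more 84.8% and 92.1%. The FAIRE share of the ZNF genes went from 70% (48.1 to 85.5) at 0 to 9 CpG to 39.4% (24.7 to 56.3) at 30 or more, with intervals that overlap. In the other genes it was 11.1%, 36%, 61.3% and 46.1% over the 4 classes, so that the ZNF genes stood above them under 20 CpG. From 20 CpG on the intervals overlapped, with 52.1% (42.2 to 61.8) of ZNF genes against 61.3% (55.8 to 66.6), and 39.4% against 46.1% (41 to 51.3) at 30 or more.

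**Figure D4:**
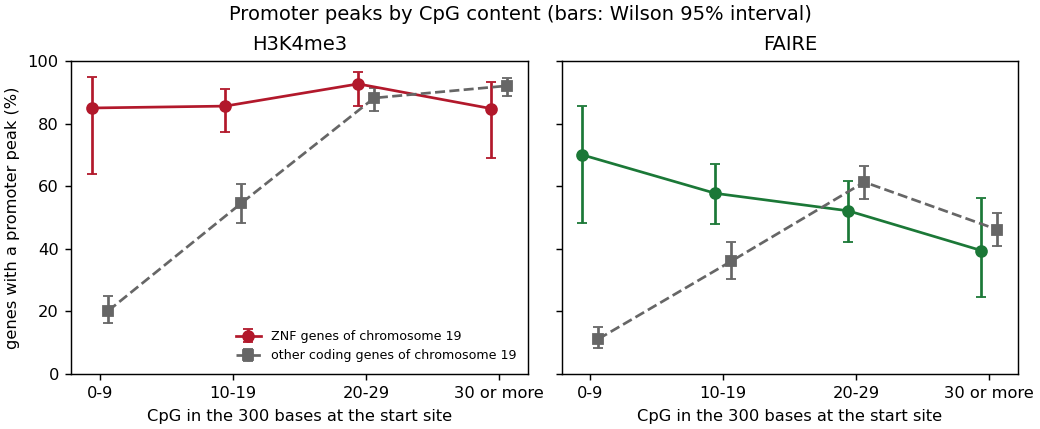
Share of genes with a promoter peak (y axis, %) by number of CpG in the 300 bases at the canonical start (x axis), with Wilson 95% intervals, for H3K4me3 and FAIRE. H3K4me3 at ZNF promoters lies between 84.8% and 92.7% in each class, while the other coding genes of chromosome 19 rise from 20.1% to 92.1%.

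The letters CCGGAA, searched on both strands, were in the same 300 bases of 135 ZNF genes, 54.9%, beside 28.6% of all coding genes of chromosome 19 and 23.4% of those outside the ZNF genes. GGGCGG, the core of the Sp1 site, was in 66.7% of ZNF windows and 66.2% of the others, and TATAAA in 3.25% and 7.7%. ZNF promoters with CCGGAA had H3K4me3 in 120 of 135 and those without in 97 of 111, or 88.9% and 87.4%. Among the other genes the same shares were 86.5% and 58.3%. A match of letters does not show that a factor bound.

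FAIRE divided the ZNF promoters that carried both active histone marks. Of these 211, 132 or 62.6% had a FAIRE peak, close to the 63.2% of the 734 other coding genes with both marks. The 2 sets of ZNF genes had H3K4me3 of like width, 2604 bp with FAIRE and 2638 bp without. The median H3K27Ac score was 820.5 with FAIRE (95% interval of the median 636.6 to 971.2) and 1044.8 without (859.2 to 1241.8), and these intervals overlap. The sets stood apart in base composition, with a median of 19 CpG (18 to 20) with FAIRE and 22 (21 to 23) without, and a GC content of 58% (56.7 to 59.3) and 61.7% (61 to 64.3). The tallest FAIRE peaks were at ZNF226 (height 181.14), ZNF225 (160.61), ZNF792 (151.35), ZNF235 (147.68) and ZNF473 (142.08), against a median of 75.3 over the 133. ZNF225, ZNF226 and ZNF235 stand in the same cluster, and ZNF226, ZNF235 and ZNF792 also carried H3K4me1.

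Members whose starts lie within 500 kb of the next formed 10 clusters of at least 5 genes, which held 232 of the 246. Cluster 3 (chr19:11594242-12750912) had H3K4me3 and H3K27Ac at all 25 of its genes and FAIRE at 20. Cluster 9 (chr19:55987984-57183151) had H3K4me3 at 13 of 16 but FAIRE at 3, the lowest FAIRE share of the 10 at 18.8%. Its median of 30 CpG was the highest of the clusters, and 6 of its 16 genes had a KRAB pattern. Cluster 8 (chr19:52074536-54083523) had H3K4me3 at 36 of 39 and FAIRE at 15. Cluster 10 (chr19:57702868-58992597), the largest by number of genes, had H3K4me3 at 39 of 43 and FAIRE at 25.

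**Figure D5:**
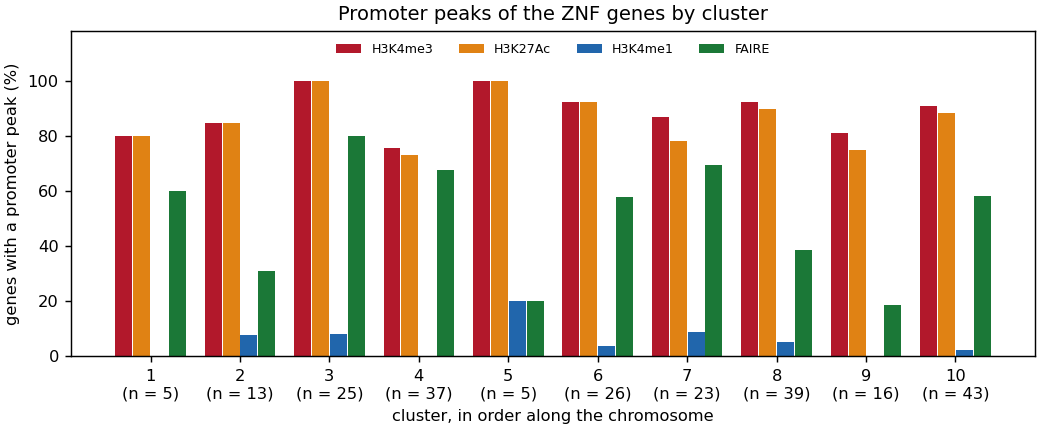
Share of the ZNF genes of each cluster (x axis, with the number of genes) that have a promoter peak (y axis, %) in each of the 4 lists. H3K4me3 lies between 75.7% in cluster 4 and 100% in clusters 3 and 5, and FAIRE between 18.8% in cluster 9 and 80% in cluster 3.

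Cluster 4 (chr19:19779605-24312770) held 9 of the 29 promoters without a peak among its 37 genes. No peak met 11.8% of all ZNF promoters and 29.1% of those of all coding genes of chromosome 19. Of the 9 in cluster 4, 8 follow each other with no marked ZNF gene between them, namely ZNF676, ZNF729, ZNF98, ZNF492, ZNF99, ZNF723, ZNF728 and ZNF730. The 0.968 Mb from the first to the last (chr19:22361891-23330023) contained 0 peaks of each of the 4 lists and no other coding gene. Unique words made up 85.67% of the promoter of ZNF676, the lowest of the 8, and 96.12% of that of ZNF98, the highest. The nearest H3K4me3 peaks on the 2 sides were 1.19 Mb apart, and the nearest FAIRE and H3K27Ac peaks 1.4 Mb apart. The left H3K4me3 peak is that of ZNF257, with a score of 188.46 and no other mark. ZNF208, the other unmarked gene of the cluster, lies beyond ZNF257, and its start was 40978 bp from an H3K4me3 peak. The cluster as a whole had 9.04 H3K4me3 and 7.5 FAIRE peaks per Mb, against 19.5 and 19.2 over the chromosome. Peaks per Mb take no account of how many genes a stretch holds. Counted by gene, 75.7% of the cluster's ZNF genes had H3K4me3 and 67.6% FAIRE, beside 68.8% and 41.4% of all coding genes of chromosome 19. The other 28 genes of the cluster had H3K4me3, and 25 of the 37 had FAIRE, among them ZNF43, ZNF93 and ZNF91.

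The 20 genes without a peak outside this cluster were spread over 7 other clusters and 2 genes that stand in none. ZNF556 stood in cluster 1, and ZNF177 and ZNF560 in cluster 2. Neighbours without a peak came in pairs at ZNF285 with ZNF229, ZNF534 with ZNF578 and ZNF667 with ZNF471. The number of fingers had a median of 12 in the 29 genes without a peak and of 12 in those with one. A KRAB pattern was found in 207 members, of which 87.9% had H3K4me3 and 55.1% FAIRE, and in the 39 without it the shares were 89.7% and 48.7%. Median H3K4me3 width was 2530 bp with the pattern and 2993 bp without.

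Of 17 members set down from the literature, 12 had H3K4me3, 11 H3K27Ac and 8 FAIRE, and 5 had no peak. H3K4me3 was thus at 70.6% of the list, beside 88.2% of all 246 ZNF genes and 68.8% of the coding genes of chromosome 19, and no peak at 29.4%, beside 11.8% and 29.1%. ZNF91, ZNF93, ZNF43, ZNF224, ZNF350, ZNF160, ZNF331 and ZNF304 had H3K4me3, H3K27Ac and FAIRE, with H3K4me3 widths from 2277 bp at ZNF304 to 3117 bp at ZNF93. ZNF808, ZNF671 and ZNF274 had the histone marks without FAIRE. ZNF274, which binds the 3′ ends of other ZNF genes, had an H3K27Ac score of 3126.13 and ZNF671 had 192.47. ZNF582 had H3K4me3 alone, and ZNF208, ZNF382, ZNF471, ZNF154 and ZNF677 had no peak. The list was set down for genes that bind retrotransposons or ZNF genes, or with promoters or roles known from tumours or development. DNA methylation of these promoters was not measured here.

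A pair of promoters from this list is shown because both are rich in CpG and their marks differ. The window of ZNF331 (plus strand, chr19:54041149-54041448) held 33 CpG. The gene had H3K4me3 of 2635 bp and a FAIRE peak of height 119.72 at an annotated start site, which need not be the one shown. ZNF471 (plus strand, chr19:57018974-57019273) held 27 CpG and a CCGGAA match, in capitals, and no peak met it.
ZNF331: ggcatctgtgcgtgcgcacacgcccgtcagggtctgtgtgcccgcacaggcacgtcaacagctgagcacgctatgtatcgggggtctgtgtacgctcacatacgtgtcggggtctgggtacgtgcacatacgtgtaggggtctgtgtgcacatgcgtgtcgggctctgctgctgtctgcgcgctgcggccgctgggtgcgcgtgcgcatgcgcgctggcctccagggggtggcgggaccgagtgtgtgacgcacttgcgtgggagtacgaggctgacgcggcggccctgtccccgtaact
ZNF471: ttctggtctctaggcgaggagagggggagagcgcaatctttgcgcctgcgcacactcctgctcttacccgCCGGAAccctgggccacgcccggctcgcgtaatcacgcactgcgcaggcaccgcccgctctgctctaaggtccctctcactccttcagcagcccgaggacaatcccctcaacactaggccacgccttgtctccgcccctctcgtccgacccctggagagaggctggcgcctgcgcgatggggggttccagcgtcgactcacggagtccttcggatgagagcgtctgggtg
The nearest H3K4me3 peak to a ZNF471 start was 26807 bp away, and 100% of the 50-base words of its promoter occur once in the genome.

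The proteins that act with KRAB zinc fingers were checked from a fixed list of 14: TRIM28, the methyltransferases SETDB1 and DNMT1, the HP1 proteins CBX1, CBX3 and CBX5, the ATPases CHD3, CHD4, ATRX and MORC2, the histone chaperone DAXX, and MPHOSPH8, TASOR and PPHLN1 of the HUSH complex. All 14 had H3K4me3 and H3K27Ac at the promoter, beside 67.3% and 63.5% of all coding genes, and 12 had FAIRE, beside 39.3%. Their H3K4me3 peaks had a median width of 3446 bp, from 2670 to 8286 bp, against 2973 bp over all coding genes with the mark.

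Enhancer peaks, H3K4me1 peaks that share no base with an H3K4me3 peak, lay within 50 kb of a start site of 25 ZNF genes, 10.2% (6.98 to 14.6), beside 21.8% of all coding genes of chromosome 19. The share was 24.1% (21.8 to 26.6) in the chromosome's other coding genes, 32.1% in the ZNF genes of other chromosomes and 47.7% over all coding genes. In the 18 chromosome 19 genes named ZFP, ZSCAN, ZIM, ZIK or ZBTB it was 11.1% (3.1 to 32.8), or 2 genes. That interval holds the share of the ZNF genes and also the 24.1% and 32.1%. The value moved with the rule, to 3.66% of ZNF genes and 12.6% of the others with peaks of a score of at least 100, and to 23.2% and 42% when all H3K4me1 peaks were counted. Chromosome 19 as a whole held 0.908% of the H3K4me1 list and 6.41% of the H3K4me3 list. The 25 genes lay near 19 enhancer peaks in all, 8 of which lay within reach of more than 1 ZNF gene, and 18 of which also met an H3K27Ac peak and 12 a FAIRE peak. ZNF574 had 3 such peaks and ZNF507, ZNF546, ZNF526 and ZNF805 had 2 each. The nearest to ZNF507 lay 2690 bp from a start site, was 5625 bp wide and had the highest score of the 19 at 726.3. Of the 25 genes, 18 belonged to the 232 genes in clusters and 7 to the 14 outside them.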

How the data were processed

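The 10 samples, MDAMB231 ChIP-seq, FAIRE-seq and input, were grouped by their labels. The authors mapped reads to GRCh37 (BWA), filtered out duplicates and poorly mapped reads, and ran MACS on the histone marks and FindPeaks on FAIRE, each on combined replicates. The submitters' processing notes also name TopHat and HOMER. The deposited histone score is minus 10 times the log10 of the p-value (a −log10 scale) and starts at 50. The deposited FAIRE value is the height of the signal.

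A peak met a window when they shared at least 1 base (numpy 2.4.6, pandas 2.3.3), and this step gave the bedtools counts on simulated intervals. Genes and start sites came from GENCODE on GRCh37. The KRAB pattern and fingers were read from translated GENCODE coding sequence, and the pattern was widened after a first look. ZNF274 has stops in frame on this build, so its fingers were not counted. Alignments used Biopython 1.88.

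Named were the first 10 members without a peak, the 5 widest and 5 narrowest H3K4me3 peaks, the 5 tallest FAIRE peaks, the 5 with most enhancer peaks and fixed lists. Other names were chosen after their values were seen. Members and lists were chosen with earlier results of these data known. Alternatives were other windows, start sites, stricter peaks, unshared windows and other enhancer rules.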

Additional observations from a re-analysis of the deposited data

How the results depend on the processing

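Of 46 alternative values for the ZNF genes, 36 stayed within the 95% interval of the value reported and 10 did not. The 46 are not separate checks, since the share without a peak closely mirrors that of H3K4me3. Some did not move at all, such as H3K4me3 at 88.2% with 500 bp or 2 kb each side. In each alternative the ZNF genes stood on the same side of the other coding genes of chromosome 19 for the 4 promoter shares, the share without a peak, the share with an enhancer peak and the H3K4me3 width. With the 5′ end of the gene as the single start site, H3K4me3 was at 80.5%, H3K27Ac at 78.9%, FAIRE at 46.7% and no peak at 19.1% of ZNF promoters. With stricter peaks (score of at least 100, FAIRE at or above its list's median) H3K4me1 was at 1.63%, FAIRE at 39% and an enhancer peak near 3.66%, against 3.97%, 32.1% and 12.6% of the others. With the peak centre inside the window H3K4me1 was at 2.44% and 3.24%. An enhancer peak was near 6.1% of ZNF genes within 20 kb, 17.5% within 100 kb and 23.2% when H3K4me1 peaks that meet H3K4me3 were counted too. The median number of enhancer peaks was 0 in both groups under every rule, could not move and is not among the 46. Where no window shared a base with another gene, H3K4me3 was at 87.7% of 122 ZNF promoters and 48.2% of 573 others, and FAIRE at 59.8% and 22%. No paired analysis was possible because the replicates were merged into 1 list per assay, and no replicate could be left out. Unknown depth limits what a missing peak shows.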
